A study of Mus musculus with 4 samples.

Results

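The genes described here are 10 genes of the neuronal membrane, the recycling endosome and the growth cone, namely Nsg1, Nsg2, Gpm6a, Gpm6b, Islr2, Mpped1, Gap43, L1cam, Ncam1 and Thy1. They were taken by gene symbol, gave 13 of the 25697 probes on the array and stand for 10 of 16593 genes, and they were chosen in part because some differed greatly between primary neurons and fibroblasts. Differences between those 2 arrays are therefore given as a description. Total RNA from mouse cells was hybridised to 4 Illumina BeadChip arrays, 1 for each of the groups APNL+AuEMF, APNL, Primary neuron and Fibroblast. The series concerns direct conversion of cells into dopamine neurons under an electromagnetic field. APNL and AuEMF are abbreviations with no expansion in the labels. By general knowledge of this line of work, APNL is taken to mean transcription factors introduced into the cells, and AuEMF to mean gold nanoparticles in an electromagnetic field. Strain, age, tissue of origin and time in culture are not in the labels, and no sample is labelled as a control for gene delivery or for the field without the factors.

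With 1 array per group no difference has a replicate check, no test was made, and precision is limited by the number of arrays. Levels are background-corrected, quantile-normalized log2 intensities, which ran between 4.7 and 16.07 on every array. Detection means a detection p below 0.01, which held for 41.4% to 47.8% of probes per array. A gene is represented by its brightest probe, and is called higher or lower from a 2-fold difference upwards. Where only 1 array of a pair detected it, the difference is a lower bound, taken against the lowest detected level of the other array (6.58 for APNL+AuEMF, 6.93 for APNL, 6.36 for Primary neuron and 7.13 for Fibroblast) or against the gene's own level there if that is higher. A lower bound under 2-fold counts as neither, though the difference may be larger. Levels of different genes come from different probes and are not compared with each other as amounts of RNA. Ranks among detected genes describe probe signal only.

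A growing axon ends in a growth cone, a flattened, motile tip that reads guidance cues and adds new membrane delivered by vesicles. Its surface carries adhesion molecules of the immunoglobulin superfamily, such as L1cam, Ncam1 and Thy1, and tetraspan proteins of the proteolipid family, such as Gpm6a and Gpm6b. Beneath the membrane sits Gap43, a palmitoylated protein kinase C substrate that is used as a marker of axon growth and regeneration, while Nsg1 and Nsg2 are small endosomal proteins that take part in the sorting of receptors in neurons.

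The 10 genes did not behave as 1 group. Nsg2, Mpped1, Gpm6a and Islr2 were near or below the detection limit on the Fibroblast array, far higher on the Primary neuron array and in between on APNL+AuEMF. Nsg1 and Gap43 were present on all 4 arrays and differed less. Thy1 and Ncam1, both used as neuronal markers, had their highest level on the Fibroblast array and their lowest on the Primary neuron array, so the name neuronal does not describe these 2 genes here. Gpm6b was close to the detection limit, and L1cam was not detected on any array. On APNL+AuEMF 9 of the 10 genes were detected, on APNL 8, on Primary neuron 9 and on Fibroblast 5. Over all genes, 51.7%, 49.1%, 52.6% and 47.3% were detected in the same order, so the Fibroblast count is near the share of all genes.

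**Figure D1:**
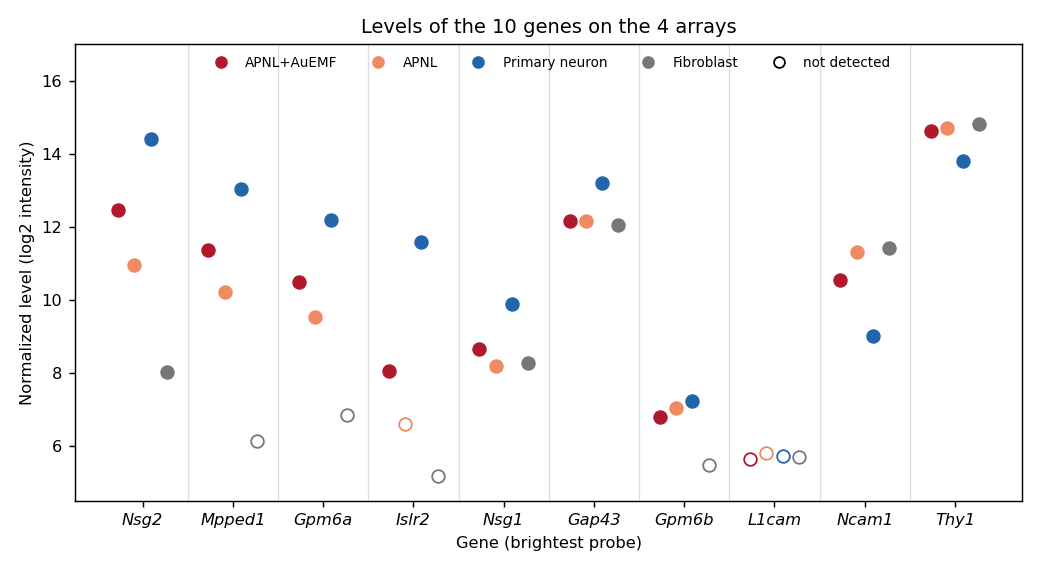
Normalized log2 level of each gene on the APNL+AuEMF, APNL, Primary neuron and Fibroblast arrays, 1 point per array, with open circles for a probe that was not detected. Nsg2, Mpped1, Gpm6a and Islr2 stand highest on Primary neuron and lowest on Fibroblast, while Ncam1 and Thy1 stand in the opposite order.

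Against Fibroblast, APNL+AuEMF had 3 genes higher, 0 lower and 6 neither of the 9 that could be compared, where 5.22% of all 8675 compared genes were higher and 1.68% lower. APNL had 3 higher, 0 lower and 5 neither of 8, where 1.55% of 8242 genes were higher and 0% lower. The 3 genes were Nsg2, Mpped1 and Gpm6a in both cases, and both comparisons use the same Fibroblast array. Primary neuron had 6 higher, 2 lower and 1 neither of 9, where 11% of 8987 genes were higher and 14.9% lower, and nothing is read from this share because the genes were chosen on that contrast. Their median log2 difference was 0.37 in APNL+AuEMF, 0.06 in APNL and 1.61 in Primary neuron, against -0.07, -0.01 and -0.07 over all compared genes. Genes detected on 1 array of a pair entered through the array where they are high, so these counts and medians only describe the genes. Of those counted as neither, Islr2 on APNL+AuEMF and Gpm6b on APNL+AuEMF, APNL and Primary neuron had only lower bounds under 2-fold. Whether they differ from Fibroblast by 2-fold is therefore undetermined.

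**Figure D2:**
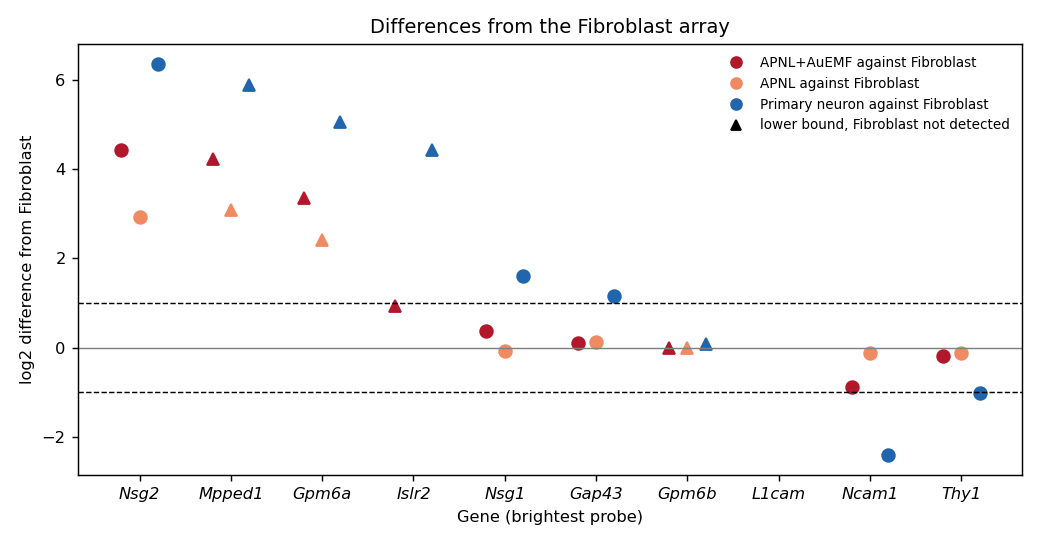
Log2 difference from Fibroblast for APNL+AuEMF, APNL and Primary neuron, by gene. Triangles are lower bounds where the Fibroblast probe was not detected, and dashed lines mark 2-fold. L1cam has no point, and Islr2 has none for APNL, because neither array detected the gene.

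Nsg2 encodes the second member of the endosomal NSG family and had the largest difference between Primary neuron and Fibroblast of those among the 10 that both arrays detected. Its probe gave intensities of 6203 on APNL+AuEMF, 1948 on APNL, 21139 on Primary neuron and 307 on Fibroblast. The normalized levels were 12.45, 10.96, 14.39 and 8.02 in the same order, and all 4 arrays detected the gene. Nsg2 was thus higher than on Fibroblast by 4.44 on APNL+AuEMF, or 21.6-fold, by 2.94 on APNL, or 7.70-fold, and by 6.37 on Primary neuron, or 82.9-fold. Without background correction, as on the deposited log2 values, these log2 differences were 3.95, 2.50 and 5.86. For scale, the central 95% of genes detected on both arrays differed from Fibroblast by -0.91 to 1.25 on APNL+AuEMF and by -0.38 to 0.54 on APNL. APNL+AuEMF was 2.81-fold above APNL, and 3.83-fold below Primary neuron. On the Primary neuron array Nsg2 ranked above 97.4% of detected genes, and on APNL+AuEMF above 84.9%.

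Its relative Nsg1, known for sorting glutamate receptors through endosomes, followed another pattern. The levels were 8.64 on APNL+AuEMF, 8.20 on APNL, 9.89 on Primary neuron and 8.27 on Fibroblast. Nsg1 was 3.06-fold higher on Primary neuron than on Fibroblast, but differed from Fibroblast by only 0.37 on APNL+AuEMF and by -0.07 on APNL. Both values are below 2-fold. APNL+AuEMF and APNL lay 2.37-fold and 3.21-fold below Primary neuron.

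Mpped1 encodes a protein with a metallophosphoesterase domain that is expressed in the developing brain, and its cellular role is not well established. Its intensities were 2993 on APNL+AuEMF, 1179 on APNL, 8572 on Primary neuron and 169 on Fibroblast, and the Fibroblast value was not detected (detection p 0.0764). The levels were 11.37, 10.22, 13.03 and 6.14 in that order. Mpped1 was at least 18.9-fold higher on APNL+AuEMF than on Fibroblast, at least 8.50-fold on APNL and at least 59.6-fold on Primary neuron. On the log2 scale these bounds are 4.24, 3.09 and 5.90, and without background correction, as on the deposited log2 values, they were 3.44, 2.35 and 5.06. APNL+AuEMF was 2.22-fold above APNL and 3.16-fold below Primary neuron.

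Gpm6a encodes a tetraspan glycoprotein that induces filopodia and promotes neurite outgrowth. The brightest of its 3 probes, ILMN_2909336, gave intensities of 1672 on APNL+AuEMF, 761 on APNL, 4989 on Primary neuron and 199 on Fibroblast, the last not detected (detection p 0.0175). The levels were 10.48, 9.54, 12.19 and 6.85. Gpm6a was at least 10.2-fold higher on APNL+AuEMF than on Fibroblast, at least 5.33-fold on APNL and at least 33.4-fold on Primary neuron. On the log2 scale these bounds are 3.35, 2.42 and 5.06, and without background correction, as on the deposited log2 values, they were 2.60, 1.75 and 4.24. APNL+AuEMF exceeded APNL by 0.94, just under 2-fold. The other probes did not show this. Probe ILMN_2684528 was detected on Primary neuron, at 7.94, and not on the other 3 arrays, and probe ILMN_2705495 was detected on none. When the 3 probes were averaged the bounds against Fibroblast were 0.00 on APNL+AuEMF and on APNL and 1.29 on Primary neuron, so the calls on APNL+AuEMF and APNL rest on 1 probe.

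Islr2, also known as Linx, encodes a leucine-rich repeat and immunoglobulin protein of growing axons that modulates receptor tyrosine kinase signalling. Its intensities were 417 on APNL+AuEMF, 194 on APNL, 3433 on Primary neuron and 130 on Fibroblast, with no detection on APNL (detection p 0.0251) or Fibroblast (0.392). The levels were 8.06, 6.60, 11.57 and 5.19. Islr2 was at least 21.7-fold higher on Primary neuron than on Fibroblast, a bound of 4.44 on the log2 scale that was 3.63 without background correction and on the deposited log2 values. On APNL+AuEMF the bound against Fibroblast was 1.91-fold, under the 2-fold line, and it was 1.14 on the log2 scale with median scaling and 1.74 with a detection threshold of 0.05, where the line lies at 1. APNL+AuEMF was at least 2.19-fold above APNL, a difference of 1.13 that became 0.68 without background correction and 0.79 with a normexp offset of 50. It was 11.3-fold below Primary neuron, the widest gap among the 10 genes.

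Promoter windows are shown for the 4 genes that were low on Fibroblast and high on Primary neuron. Nsg2, Gpm6a and Mpped1 were called higher on APNL+AuEMF and APNL than on Fibroblast, and Islr2 was not. For Nsg2 and Gpm6a the window with a motif match is shown, and for Mpped1 and Islr2, which have no match in any window, the most upstream one. RefSeq, on build GRCm38.p6, gave windows of 250 bases before to 50 bases after a start site for 6 of the 10 genes, 12 windows in all. No window was given for Nsg1, Gap43, Ncam1 or Thy1. The motifs searched on both strands were the NBRE AAAGGTCA, bound by Nurr1, the bicoid-type site TAATCC, the homeobox core TAATTA, and the left part TTCAGCACC of the RE1 element, bound by the neuronal gene repressor REST. Matches are in capitals and none overlapped another.
Nsg2, chr11:32000450-32000749, plus strand: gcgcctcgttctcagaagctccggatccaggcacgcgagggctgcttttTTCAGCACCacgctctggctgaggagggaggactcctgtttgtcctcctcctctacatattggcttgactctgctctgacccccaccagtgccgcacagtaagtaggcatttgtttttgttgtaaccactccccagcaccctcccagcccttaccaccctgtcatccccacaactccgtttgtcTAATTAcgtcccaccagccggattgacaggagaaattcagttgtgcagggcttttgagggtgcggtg
Gpm6a, chr8:54954478-54954777, plus strand: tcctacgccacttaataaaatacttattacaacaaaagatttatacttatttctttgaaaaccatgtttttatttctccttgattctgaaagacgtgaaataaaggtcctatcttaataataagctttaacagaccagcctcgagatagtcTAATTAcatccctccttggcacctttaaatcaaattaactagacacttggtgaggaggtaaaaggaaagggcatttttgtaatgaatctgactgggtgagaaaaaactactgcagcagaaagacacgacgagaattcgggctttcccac
Mpped1, chr15:83779773-83780072, plus strand: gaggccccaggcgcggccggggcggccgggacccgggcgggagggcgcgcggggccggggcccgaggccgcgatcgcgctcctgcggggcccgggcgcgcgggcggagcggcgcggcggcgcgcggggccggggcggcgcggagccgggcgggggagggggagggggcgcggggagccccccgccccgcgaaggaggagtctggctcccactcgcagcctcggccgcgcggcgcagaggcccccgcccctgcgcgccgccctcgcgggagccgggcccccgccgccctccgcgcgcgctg
Islr2, chr9:58204270-58204569, minus strand: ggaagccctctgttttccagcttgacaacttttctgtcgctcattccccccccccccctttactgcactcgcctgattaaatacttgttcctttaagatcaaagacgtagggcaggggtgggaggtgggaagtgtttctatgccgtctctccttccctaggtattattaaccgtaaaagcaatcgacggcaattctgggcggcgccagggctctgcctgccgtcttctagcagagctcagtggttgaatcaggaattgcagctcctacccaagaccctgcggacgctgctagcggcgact

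The Nsg2 window shown holds 1 TTCAGCACC and 1 TAATTA, and the Gpm6a window shown holds 1 TAATTA. The other windows of these genes, both Mpped1 windows and all 3 Islr2 windows hold 0 of the motifs, so no motif was found in all 3 genes called higher. Over all 32851 windows, 5.29% hold TAATTA, 0.371% TTCAGCACC, 1.51% AAAGGTCA and 7.06% TAATCC. Of the 12 windows of the 6 genes, 2 hold TAATTA, 1 holds TTCAGCACC and 0 hold either of the others. The windows differ widely in composition, with 89.3% G and C in the Mpped1 window shown, 54.0% in the Islr2 window shown and 36.0% in the Gpm6a window shown, against a median of 52.7% over all windows. The array does not show which start site was used, and a match in letters is not evidence of binding.

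Gap43, the growth cone protein, already gave a bright probe signal on the Fibroblast array, where its level stood above 78.0% of detected genes. The levels were 12.15 on APNL+AuEMF, 12.16 on APNL, 13.19 on Primary neuron and 12.04 on Fibroblast. The 3 arrays other than Primary neuron lay close together. Gap43 was 2.22-fold higher on Primary neuron than on Fibroblast, and it differed from Fibroblast by 0.11 on APNL+AuEMF and 0.12 on APNL. With median scaling the Primary neuron difference was 0.65 and no longer reached 2-fold, and the median over all genes was then -0.28. APNL+AuEMF was 2.06-fold below Primary neuron and APNL 2.05-fold below, and with median scaling these differences were -0.75 and -0.52, short of 2-fold.

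Gpm6b, the second proteolipid family gene, is expressed in neurons and in glia. Its intensities were 238 on APNL+AuEMF, 222 on APNL, 320 on Primary neuron and 143 on Fibroblast, the last not detected (detection p 0.214). The levels were 6.79, 7.05, 7.22 and 5.48, and those of APNL+AuEMF and APNL were below the lowest detected Fibroblast level of 7.13. No fold could therefore be given for them, and Primary neuron exceeded that bound by 0.09. No order of the 3 arrays that detected Gpm6b can be read at this signal, where its level lay above 3.2%, 1.8% and 12.6% of the genes detected on APNL+AuEMF, APNL and Primary neuron.

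Among the adhesion genes, L1cam, which encodes the founding member of the L1 family that fasciculates axons, had intensities of 162 on APNL+AuEMF, 160 on APNL, 176 on Primary neuron and 153 on Fibroblast. None was detected, with the lowest detection p of 0.0802 on Primary neuron. The level was thus not measurable by this probe even on the Primary neuron array. Of 12 neuron markers, Snap25 and Nefl were likewise not detected on any array, and the other 10 were detected on Primary neuron.

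Ncam1 encodes the neural cell adhesion molecule, which is carried by neurons and glia and also by developing muscle. The brighter of its 2 probes, ILMN_2722864, gave intensities of 1738 on APNL+AuEMF, 2487 on APNL, 781 on Primary neuron and 2544 on Fibroblast. The levels were 10.54, 11.31, 9.02 and 11.43, so APNL and Fibroblast lay close together and APNL+AuEMF lay between them and Primary neuron. Ncam1 was 5.31-fold lower on Primary neuron than on Fibroblast. On APNL+AuEMF it differed from Fibroblast by -0.89 and from APNL by -0.78, and on APNL it differed from Fibroblast by -0.11. With median scaling the APNL+AuEMF difference from Fibroblast was -1.03, past 2-fold, where the median of all genes was -0.15. APNL+AuEMF was 2.87-fold and APNL 4.91-fold above Primary neuron. The second probe, ILMN_3102825, was dim, with levels of 7.27, 7.41, 6.90 and 7.56 on APNL+AuEMF, APNL, Primary neuron and Fibroblast, and differed by -0.67 between Primary neuron and Fibroblast, by 0.37 between APNL+AuEMF and Primary neuron and by 0.52 between APNL and Primary neuron. With the mean of both probes these differences were -1.54, 0.94 and 1.41, so the call of APNL+AuEMF against Primary neuron rests on the brighter probe.

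Skeletal muscle markers moved with Ncam1. All 9 with a probe were detected on APNL+AuEMF, APNL and Fibroblast, and 4 of 9 on Primary neuron, where Actc1, Tnnt3, Tnnc2, Myog and Chrng were not detected. Their summed intensity was 19612 on APNL+AuEMF, 31964 on APNL, 2806 on Primary neuron and 33411 on Fibroblast. Myl1, a muscle myosin light chain gene, had levels of 12.47, 13.35, 6.40 and 13.54 in that order. The part of muscle cells in the Ncam1 levels was not tested, and in such bulk RNA fewer cells of a type cannot be told apart from less RNA per cell.

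Thy1 encodes a small glycolipid-anchored immunoglobulin protein found on neurons, T cells and fibroblasts. Its intensities were 27262 on APNL+AuEMF, 26888 on APNL, 14240 on Primary neuron and 27821 on Fibroblast. The levels of 14.62, 14.70, 13.80 and 14.81 were above 95.3% to 98.3% of detected genes on each array. Thy1 was 2.02-fold lower on Primary neuron than on Fibroblast, a difference of -1.02 at the 2-fold line, which was -1.62 with median scaling. It differed from Fibroblast by -0.19 on APNL+AuEMF and by -0.11 on APNL. APNL+AuEMF exceeded Primary neuron by 0.83 and APNL exceeded it by 0.91, and with median scaling these differences were 1.15 and 1.48, past 2-fold.

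Fibroblast markers moved in part with Thy1, and 8 of 9 were detected on every array, Primary neuron included. The one not detected was Postn. Their summed intensity was 126109 on APNL+AuEMF, 96489 on APNL, 40188 on Primary neuron and 99494 on Fibroblast. The median level of the list was 12.34, 12.40, 9.84 and 12.55 in that order. On APNL+AuEMF Dcn, Lum and Col1a2 lay above their Fibroblast levels, and Col1a1, Col3a1, Pdgfra, Fap and Twist1 lay below theirs. The higher sum on APNL+AuEMF therefore does not describe most of the list. Of 6 T cell markers with a probe, Cd3g, Cd3d, Cd2, Cd4 and Cd8a were not detected on any array, and Cd3e was detected on all but Primary neuron, with levels of 6.91, 7.61, 5.95 and 7.98 on APNL+AuEMF, APNL, Primary neuron and Fibroblast. The part of fibroblasts in the Thy1 level of the Primary neuron array was not tested.

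Between APNL+AuEMF and APNL, 3 genes were higher, 0 lower and 6 neither of 9, where 3.14% of the 8700 genes compared were higher and 0.759% were lower. These were Nsg2, Islr2 and Mpped1, and the median difference was 0.43 against -0.05 over all genes. The count was 2 without background correction, on the deposited log2 values and with a normexp offset of 50, where Islr2 fell short of 2-fold. Of all genes 146, 146 and 184 were then higher. At a 3-fold threshold 0 of the 3 genes remained, where 52 of all genes were higher. The central 95% of genes detected on both arrays differed by -0.78 to 1.05. Markers of several cell types moved alongside. The 12 neuron markers had a summed intensity of 22730 on APNL+AuEMF and 10564 on APNL, against 66173 on Primary neuron and 5543 on Fibroblast, and 10, 8, 10 and 5 of them were detected. The 8 microglia and macrophage markers summed to 23312 on APNL+AuEMF, 3076 on APNL, 2566 on Primary neuron and 3141 on Fibroblast, and 7, 5, 5 and 4 of them were detected. Itgam was not detected on any array. The 5 oligodendrocyte lineage markers summed to 5698 on APNL+AuEMF, 2444 on APNL, 6586 on Primary neuron and 1100 on Fibroblast, with 2 detected on each array, Mbp and Olig1, and Mog, Mag and Olig2 on none. Olig1 had levels of 12.13, 10.85, 12.39 and 8.77 in that order, and Mbp 7.75, 7.38, 7.98 and 7.59. The differences in this sum thus come mainly from Olig1 and do not describe the list as a whole. The 6 astrocyte markers summed to 56144, 54571, 43726 and 46458 in that order, with 4, 2, 5 and 2 detected and Gfap on none. This sum differed little between APNL+AuEMF and APNL. Gja1 gave the largest part of it, with levels of 15.32, 15.52, 14.98 and 15.42, so the sum hides the other markers. Slc1a3 had levels of 13.22, 12.39, 13.58 and 11.74, and Aqp4 and Aldh1l1 were detected on APNL+AuEMF and Primary neuron only. The part of these cell types in the differences was not tested.

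Against Primary neuron, APNL+AuEMF had 1 gene higher, 6 lower and 2 neither of 9, where 7.42% of 9076 genes were higher and 6.74% lower. APNL also had 1 higher, 6 lower and 2 neither, where 12.7% of 9010 genes were higher and 10.7% lower. The lower genes were Nsg1, Nsg2, Gpm6a, Islr2, Mpped1 and Gap43, of which Gap43 did not reach 2-fold with median scaling, and the higher gene was Ncam1. The median difference was -1.25 for APNL+AuEMF and -1.68 for APNL, against 0.03 and 0.07 over all genes, and both use the same Primary neuron array. The Primary neuron levels are among the values the genes were chosen on, so nothing is read from these counts and medians.

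How far each gene lay between the end arrays was taken as a share on the linear scale, the excess over Fibroblast divided by the excess of Primary neuron over Fibroblast. It was computed for the 398 genes at least 4-fold higher on Primary neuron, of which 4 are among the 10. On APNL+AuEMF the share was 25.2% for Nsg2, 31.1% for Mpped1, 28.8% for Gpm6a and 7.71% for Islr2. On APNL it was 8.18% for Nsg2, 13.5% for Mpped1, 13.8% for Gpm6a, and Islr2 was not detected. The median over all 398 genes was 27.1% on APNL+AuEMF, with an interquartile range of 20.4% to 38.3%, and 10.4% on APNL, with an interquartile range of 6.97% to 15.2%. Nsg2, Mpped1 and Gpm6a lay inside this range on both arrays by their measured values. Islr2 lay below it on both. The Fibroblast level of Mpped1, Gpm6a and Islr2 and the APNL level of Islr2 were not detected, so their shares have limits, set by letting an undetected level lie anywhere between the lowest and the lowest detected level of its array. On APNL+AuEMF the limits were 30.5% and 31.4% for Mpped1, 28.4% and 30.2% for Gpm6a, and 4.41% and 8.03% for Islr2. On APNL they were 12.8% and 14.0% for Mpped1 and 13.4% and 15.5% for Gpm6a, the last just above the interquartile range, and the Islr2 share was at most 3.19%. The Gpm6a shares and limits rest on its brightest probe alone. Probe ILMN_2684528 was detected on Primary neuron only. Its levels were 5.38 on APNL+AuEMF, 5.29 on APNL, 7.94 on Primary neuron and 5.68 on Fibroblast, so it did not show the intermediate levels. On the deposited intensities without normalization the Islr2 share on APNL+AuEMF was 8.70%.

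**Figure D3:**
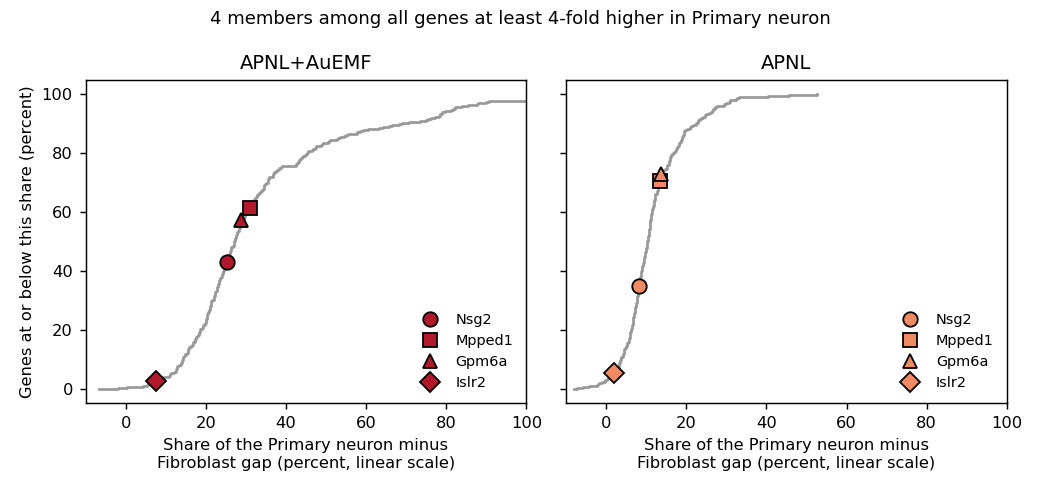
Cumulative share plot for APNL+AuEMF and APNL: the x axis is the percent of the Primary neuron minus Fibroblast gap on the linear scale, the y axis the percent of the 398 genes at or below it, and markers show 4 of the genes. Islr2 sits at the low end of both curves, at 7.71% on APNL+AuEMF, and its APNL point is a measured value of a probe that was not detected there, and 9 genes above 100% on APNL+AuEMF fall outside the axis.

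Other genes of growth cones and neurite outgrowth were taken from a list of 18, all with a probe. Of these, 9 were higher and 8 neither on APNL+AuEMF than on Fibroblast, 5 higher and 11 neither on APNL, and 12 higher and 5 neither on Primary neuron, and 0 were lower in any of the 3, though 1 was lower on Primary neuron with median scaling. Over all compared genes 5.22%, 1.55% and 11% were higher. The median differences were 1.15, 0.41 and 2.56, against -0.07, -0.01 and -0.07 over all genes. Dcx, the doublecortin gene of migrating young neurons, had levels of 11.09 on APNL+AuEMF, 9.78 on APNL, 13.47 on Primary neuron and 7.79 on Fibroblast. Dpysl5, a collapsin response mediator gene, had 10.91, 9.75, 13.13 and 8.01, and Gprin1, which encodes a G protein-regulated inducer of neurite outgrowth, had 11.57, 10.45, 13.46 and 8.84. Rufy3, which encodes a protein that helps set axon number, had 11.01, 9.67, 13.01 and 8.28. All 4 kept the same order of arrays as Nsg2. They were named because their APNL+AuEMF differences from Fibroblast are the largest on the list, so nothing is read from this likeness. Marcks, a membrane-bound protein kinase C substrate like Gap43, had levels of 15.16 on APNL+AuEMF, 15.42 on APNL, 14.94 on Primary neuron and 15.39 on Fibroblast. Basp1, a protein of the same kind, was not detected on any array. Between APNL+AuEMF and APNL, 6 genes of the list were higher, 0 lower and 11 neither, where 3.14% of all genes were higher, with a median of 0.59 against -0.05 over all genes.

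**Figure D4:**
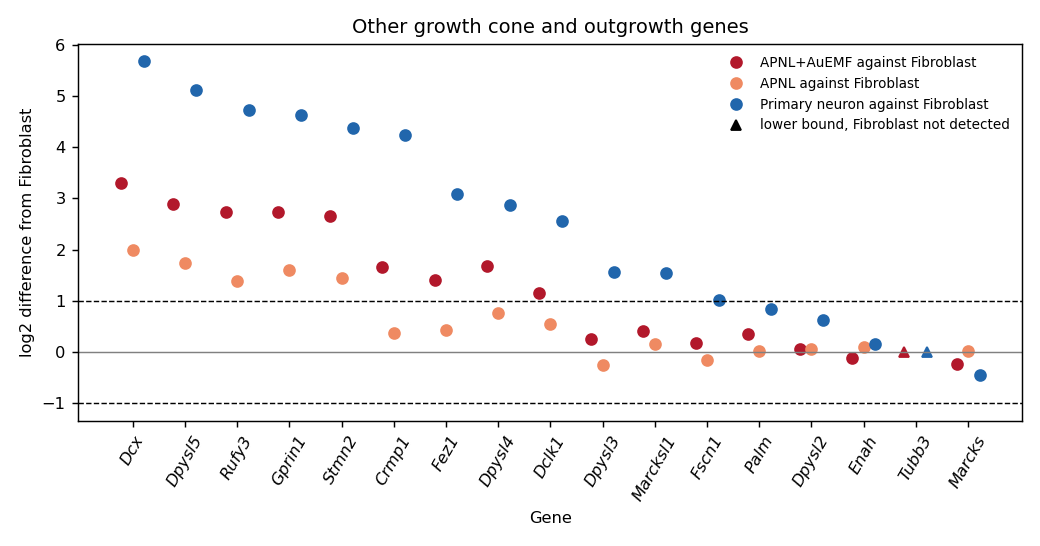
Log2 difference from Fibroblast for the 17 other growth cone and outgrowth genes that could be compared on Primary neuron, ordered by that difference, for APNL+AuEMF, APNL and Primary neuron. Triangles are lower bounds and dashed lines mark 2-fold. From Dcx to Dclk1 the APNL+AuEMF points lie between those of APNL and Primary neuron. The genes right of Fscn1, apart from Tubb3, differ by less than 2-fold on all 3. Tubb3 was not detected on Fibroblast or APNL, so it has only lower bounds on APNL+AuEMF and Primary neuron and no APNL point.

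On a list of 24 immunoglobulin superfamily and related neural adhesion genes, 18 had a probe. On APNL+AuEMF 2 were higher than on Fibroblast and 9 neither of 11, on APNL 1 was higher and 8 neither of 9, and on Primary neuron 7 were higher, 1 lower and 4 neither of 12, beside 5.22%, 1.55% and 11% of all genes higher. The medians were 0.19, 0.11 and 1.19, against -0.07, -0.01 and -0.07 over all genes. The APNL+AuEMF count was 4 with median scaling, and the APNL count was 0 without background correction, on the deposited log2 values and with a normexp offset of 50. Between APNL+AuEMF and APNL 2 genes of the list were higher, and 0 under those same settings, where 3.14% of all genes were higher in the main setting. The 2 higher genes on APNL+AuEMF were Cntn1, which encodes contactin 1, by 3.88-fold, and Nrcam, of the L1 family, by 3.67-fold. Chl1, the close homolog of L1cam, had a level of 8.05 on APNL+AuEMF and 10.06 on Primary neuron and was not detected on Fibroblast. It was at least 7.65-fold higher on Primary neuron than on Fibroblast, and on APNL+AuEMF the bound was 1.89-fold. Cntnap2, which encodes a neurexin-related axonal protein, was at least 9.03-fold higher on Primary neuron and had a bound of 1.93-fold on APNL+AuEMF. Alcam, an adhesion gene found in many tissues, was lower on Primary neuron by 3.50-fold and differed by -0.66 on APNL+AuEMF, the same order of arrays as Ncam1. Ncam2, Nfasc, Cntnap1, Negr1, Lsamp and Dscam were not detected on APNL+AuEMF, Primary neuron or Fibroblast.

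Among relatives of the 10 genes by protein family, 8 of 10 had a probe and 3 could be compared with Fibroblast, namely Islr, Chl1 and Nrcam. Nrcam was higher on APNL+AuEMF. Islr, the mesenchymal relative of Islr2, had levels of 7.01 on APNL+AuEMF, 6.99 on APNL, 6.60 on Primary neuron and 6.97 on Fibroblast. All lay near the detection limit and only the Fibroblast level was not detected, so no difference between the arrays is read from Islr. Caly, of the Nsg family, was not detected on APNL+AuEMF, Primary neuron or Fibroblast, and neither were Nrgn and Pcp4, which bind calmodulin as Gap43 does.

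The 5 genes whose pattern over the 4 arrays lay nearest to the median pattern of the 9 genes detected on Primary neuron were Slc16a6, Pcdha6, Tox3, Hcn2 and Abcg4. Likeness was the root mean square distance of the 4 log2 levels after each gene's own mean was subtracted, over 7809 candidate genes, and it was 0.044 for Slc16a6 and 0.111 for Abcg4. Slc16a6, for example, had levels of 8.86 on APNL+AuEMF, 8.42 on APNL, 9.82 on Primary neuron and 7.59 on Fibroblast. The median pattern averages genes that ran in opposite directions, so none of the 10 genes need resemble it closely.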

How the data were processed

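Total RNA of 4 mouse samples was labelled from 0.55 ug each, per the labels' protocols, and read on 1 Illumina BeadChip array per sample. The deposited intensity table holds 25697 probes on a linear scale with no normalization between arrays, and beside each intensity a deposited detection p-value that moves in steps of 1 in 798. The submitters' processing notes name GenomeStudio 2011.1, and how it handled background is not given in the sources used here. Deposited log2 values equal a quantile normalization of the log2 intensity to within 5e-07.

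Levels were computed with neqc of limma 3.58.1 in R 4.3.3, with an offset of 16 and control information inferred from the detection p-values. Of the probes 23978 had 1 gene symbol, 0 several and 1719 none, and 13 of 13 probes of the described genes matched RefSeq by gene identifier. Median probe intensity was 169 to 207 per array. The steps were tested on simulated data. Python 3.11.15, pandas 2.3.3 and numpy 2.4.6 were used, and matplotlib 3.10.9 for figures.

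Groups are the sample titles and 6 pairs of arrays were compared, with 8 alternatives. One item is not reported here. The genes, lists, motifs and rules were chosen with earlier results of these data known. Named are all 10 genes, from each list up to 4 genes with the largest APNL+AuEMF difference from Fibroblast or not detected on Primary neuron, and the 5 nearest patterns. Marcks, Alcam, the astrocyte markers Gja1, Slc1a3, Aqp4 and Aldh1l1 and the fibroblast markers other than Postn were named after their values were seen. The levels of Olig1 and Mbp were also added then. Summed intensities of marker lists are sums of deposited intensity over each gene's brightest probe.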

Additional observations from a re-analysis of the deposited data

How the results depend on the processing

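No paired analysis was possible because each group has 1 array. Of the counts of the 10 genes at 2-fold or more, 87 of 96 recomputed values stayed within 1.5 times the main count and 9 did not. With median scaling 1 gene was lower on APNL+AuEMF than on Fibroblast in place of 0, and 2 genes were higher than on Primary neuron in place of 1, for both APNL+AuEMF and APNL. With no detection filter 5 genes were higher than on Fibroblast in place of 3, for both APNL+AuEMF and APNL, and the APNL median was 0.76 in place of 0.06. With the mean of a gene's probes 0 genes were higher on APNL+AuEMF than on Primary neuron in place of 1. At a 3-fold threshold 1 gene was lower on Primary neuron than on Fibroblast in place of 2, 0 were higher on APNL+AuEMF than on APNL in place of 3, and 0 were higher on APNL+AuEMF than on Primary neuron in place of 1. The filter and the threshold act by their construction, and for the others the cause was not tested. The medians were otherwise within 1.5-fold in 41 of 42 values, and the shares in 12 of 12, from 25.3% to 33.7% for APNL+AuEMF and 9.81% to 14.4% for APNL. Of the single-gene differences 321 of 371 kept their side of 2-fold and moved by under 1.5-fold, and none that reached 2-fold reversed. The related list counts stayed within 1.5 times in 126 of 144 values and moved in 18. Over all genes, higher counts ranged from 229 to 749 around 453 for APNL+AuEMF against Fibroblast, from 52 to 286 around 128 for APNL and from 52 to 431 around 273 for APNL+AuEMF against APNL. Lower counts ranged from 1 to 236 around 146, from 0 to 35 around 0 and from 0 to 105 around 66 in the same order, with 18, 0 and 0 on the deposited log2 values, so the shares of lower genes depend on the background correction. Signal over background limits Gpm6b, L1cam and the Fibroblast levels of Mpped1, Gpm6a and Islr2.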

Other observations

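Ncam1 was the only one of the 10 genes among the 272 genes at least 4-fold lower on Primary neuron than on Fibroblast. For these genes the share of the drop was computed on the linear scale after the values were seen. Ncam1 had covered 56.6% of its drop on APNL+AuEMF and 9.23% on APNL. The median over the 272 genes was 49.3% on APNL+AuEMF, with an interquartile range of 37.9% to 57.9%, and 11.9% on APNL, with an interquartile range of 5.32% to 17.1%. Ncam1 thus lay inside this range on both arrays. Its place among the 272 genes rests on the brighter of its 2 probes. Between Primary neuron and Fibroblast the dimmer probe differed by -0.67 and the mean of both by -1.54 on the log2 scale, short of 4-fold. On APNL+AuEMF the median share of the genes lower on Primary neuron, 49.3%, stood beside a median share of 27.1% for the 398 genes higher on Primary neuron, while on APNL the corresponding medians were 11.9% and 10.4%. No test of this difference was made.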
